A study of Mus musculus with 8 samples.

Results

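Transcription in round spermatids, the haploid cells that follow meiosis, depends on a small set of regulators, and 10 of them are described here in Miwi-null and wild-type (WT) mouse testes. They are the genes Crem, Fhl5, Kif17, Rfx2, Rfx3, Rfx4, Sox30, Tbpl1, Taf7l and Gtf2a1l, chosen by name out of 21949 genes in the deposited tables. Each gene was represented by its transcript with the highest mean fragment count over the 8 libraries. All 10 passed the filter on low counts that left 16051 genes for testing. Total RNA and ribosome footprints, the short mRNA fragments shielded from nuclease by a translating ribosome, were sequenced from whole testes. All mice were of the C57BL/6 strain and 24 days old after birth. The Miwi-null group lacks MIWI, the PIWI protein encoded by Piwil1, and the WT group has the same strain, age and tissue. Each genotype gave 2 libraries of total RNA and 2 of footprints. The labels name no animals, so a p-value here reflects how much libraries of the same group vary, pooled over both assays. Some of that variation may be technical.

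CREM is a DNA-binding protein that recognises cAMP response elements and switches on many genes that a spermatid needs to build a sperm. In the male germ line it works with the coactivator ACT, the product of Fhl5, and the kinesin KIF17 moves ACT out of the nucleus. RFX proteins bind the X-box of ciliary and flagellar genes, SOX30 is an HMG-box factor required for spermatids to develop, and TBPL1, TAF7L and GTF2A1L are germ cell relatives of the general factors TBP, TAF7 and TFIIA. Spermatid mRNAs are often stored untranslated for days, so RNA level and ribosome occupancy of a gene can differ widely in this tissue.

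The upstream sequences of the members were compared first, because CREM and the RFX proteins are themselves members. Promoters were taken from RefSeq on build GRCm38.p6, as the 250 bases before each annotated start, and 9 of the 10 members had one. The search covered both strands for the full cAMP response element TGACGTCA, its core TGACG, which the full element contains, the X-box core GTTGCC, the TATA element TATAAA and the MYB site CCGTTA. The windows of Kif17, Rfx2 and Fhl5 are shown, the first pair because they held both a cAMP element core and an X-box core, and that of Fhl5 because its footprints changed most. Capitals mark the motif letters found, lower case the rest, each read 5′ to 3′ on the strand of the gene. The windows are chr4:138262001-138262250 on the plus strand, chr17:56831009-56831258 on the minus strand and chr4:25242853-25243102 on the minus strand.
Kif17: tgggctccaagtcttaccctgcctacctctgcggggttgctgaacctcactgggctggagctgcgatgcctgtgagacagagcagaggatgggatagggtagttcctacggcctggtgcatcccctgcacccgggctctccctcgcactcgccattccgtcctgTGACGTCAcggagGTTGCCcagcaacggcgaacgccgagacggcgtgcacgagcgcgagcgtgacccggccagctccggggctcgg
Rfx2: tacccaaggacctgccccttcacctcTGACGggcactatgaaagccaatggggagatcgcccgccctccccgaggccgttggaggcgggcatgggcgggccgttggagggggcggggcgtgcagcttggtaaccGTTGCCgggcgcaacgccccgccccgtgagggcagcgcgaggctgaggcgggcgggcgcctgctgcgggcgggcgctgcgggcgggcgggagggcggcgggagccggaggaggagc
Fhl5: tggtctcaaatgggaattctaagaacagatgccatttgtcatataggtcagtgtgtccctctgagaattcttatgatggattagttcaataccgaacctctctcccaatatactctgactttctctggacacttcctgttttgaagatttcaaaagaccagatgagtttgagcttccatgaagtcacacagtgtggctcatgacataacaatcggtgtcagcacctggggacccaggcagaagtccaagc

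In the Kif17 window the full cAMP response element began 86 bases before the annotated start, and an X-box core began 73 bases before it. The full element is present in 1.55% of 32851 promoter windows of the same length, its core in 17.8% and the X-box core in 10.4%. Rfx2 held the short core 224 bases and an X-box core 116 bases upstream. Gtf2a1l held an X-box core 188 bases upstream, and Taf7l a TATA element 148 bases upstream on its own strand that overlaps another on the opposite strand. TATA elements occurred in 12.4% of windows and the MYB site in 2.18%. The windows of Fhl5, Rfx3, Rfx4, Sox30 and Tbpl1 held none of these letters, which says only that they are not in these 250 bases. The windows of Gtf2a1l (chr17:88668410-88668659), Rfx3, Sox30 and Tbpl1 lay inside the gene spans given below. So did another window each of Fhl5 and Rfx4. The annotated starts of these windows are thus not the outer ends of those spans, and distances count from the start of the window's own promoter.

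The libraries held between 11130949 and 28334622 gene counts, so that a single count stood for 0.0353 to 0.0898 CPM, the count scaled to library size. Replicates of a group differed by more than sampling noise. The chi-square per gene was 1.18 in null RNA, 3.86 in WT RNA, 22.6 in null footprints and 44.7 in WT footprints. The main fit estimated 1 spread per gene over both assays, so its p-values do not measure the spread of RNA or of footprints alone. Piwil1 was nearly lost from both null assays. It had 3.52 and 2.27 CPM in null RNA, against 552 and 534 CPM in WT RNA, and 3.31 and 3.26 CPM in null footprints, against 482 and 389.7 CPM in WT footprints. The mean RNA insert length given in the labels was 287.6 and 284 nt in the null libraries and 266 and 244.5 nt in the WT libraries, and its part in the RNA changes was not tested.

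Across the members, 4 of 10 changed in RNA (3 lower and 1 higher in null), 3 of 10 in footprints (2 lower and 1 higher) and 6 of 10 in translational efficiency (3 lower and 3 higher). A change was called at an adjusted p under 0.05 in edgeR's quasi-likelihood test over all genes tested. Over all genes, 37.3% were called in RNA (20.8% lower and 16.5% higher), 25.4% in footprints (13.4% lower and 12% higher) and 14.9% in translational efficiency, the ratio of footprints to RNA (7.56% lower and 7.36% higher). Without TMM scaling, 55.1% of the RNA calls were higher, against 44.2% with it, and 29.2% of the efficiency calls, against 49.3%. The member counts in RNA and footprints were thus near the background. The count in efficiency was above it, but 5 of its 6 calls, all except that of Fhl5, were lost when any single RNA library was left out. The members were chosen with earlier results of these data known, so a count above the background may follow from the choice. Fhl5 lost most of its footprints. Sox30 and Kif17 had less RNA in null testes and Tbpl1 more.

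**Figure D1:**
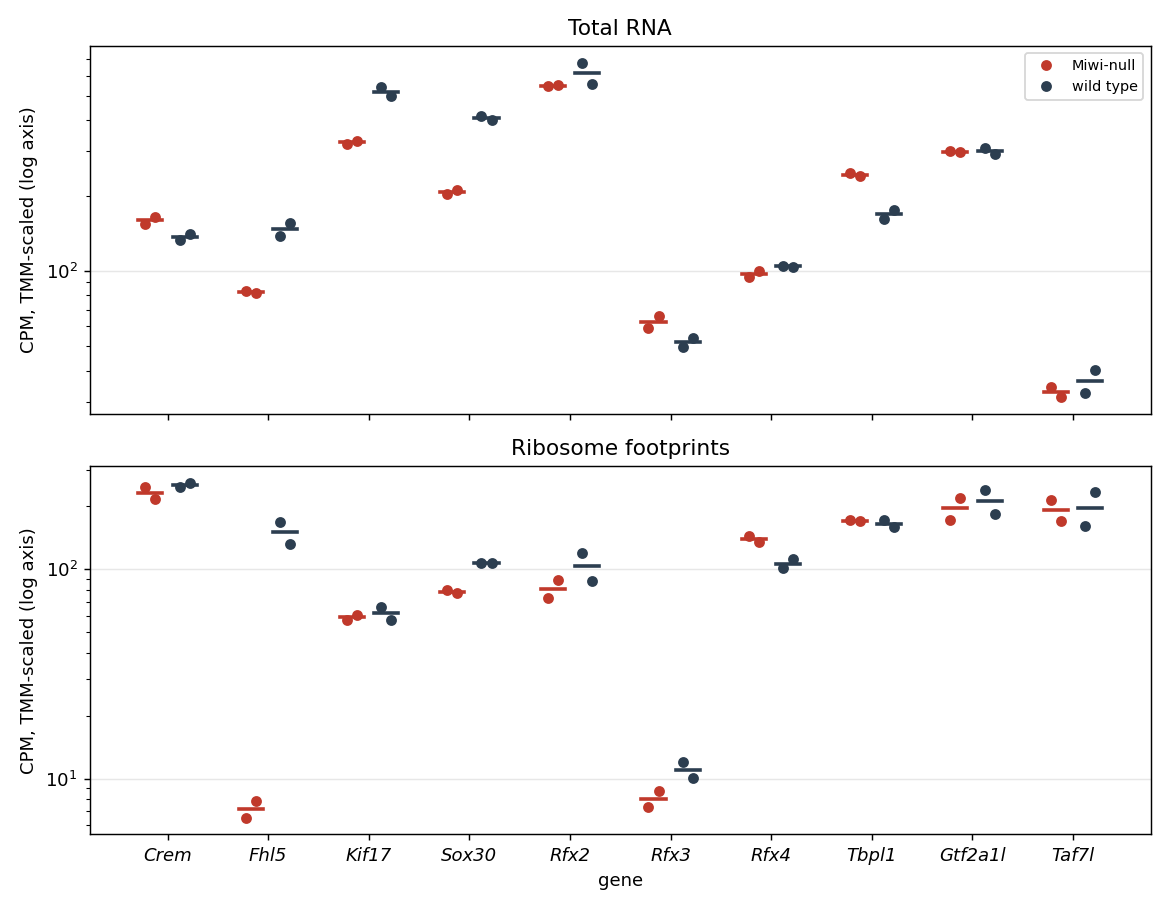
Each point is a library and each bar the mean of 2 libraries, in CPM on a log axis, for Miwi-null (red, left of each pair) and wild-type (dark) testes, with total RNA above and footprints below. Fhl5 footprints lie at 6.52 and 7.80 CPM in null against 169 and 132 CPM in WT, while most other members stay close between the genotypes.

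Markers of the cell stages moved with genotype as well. Markers of early round spermatids had 4 of 15 lower and 1 higher in null RNA, where 20.8% of all genes were lower and 16.5% higher. Their median RNA change was -0.04 on the log2 scale. Their summed RNA was 2614 and 2652 CPM in null against 3484 and 3395 CPM in WT. That lower sum rested on Dkkl1 (808 CPM in null and 1079 CPM in WT), Tssk1 (250 and 465 CPM) and Tssk2 (144 and 568 CPM). In footprints 11 of the 15 were lower and 1 higher, with sums of 3157 and 3186 CPM in null against 4635 and 4683 CPM in WT. Markers of elongating spermatids were lower in 15 of 15 in both assays, with RNA sums of 4185 and 4211 CPM in null against 21410 and 20960 CPM in WT. Their footprint sums were 989 and 845 CPM in null against 8478 and 8583 CPM in WT. Pachytene spermatocyte markers had 10 of 15 higher in RNA and 0 lower, with sums of 5034 and 5006 CPM in null against 4105 and 4409 CPM in WT. In footprints 3 of these were higher and 1 lower, with sums of 13940 and 13410 CPM in null against 15030 and 15050 CPM in WT. Without Ldhc, the sperm lactate dehydrogenase, the other 14 summed to 4104 and 3940 CPM in null footprints and 3829 and 3974 CPM in WT footprints, which overlap. No gene of any marker list was at 0 in any library. In whole testis, fewer cells of a type and less RNA per cell cannot be told apart, and the part of cell composition in the changes of the members was not tested.

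Somatic and spermatogonial markers were also checked. Over all genes, 37.3% were called in RNA (20.8% lower and 16.5% higher) and 25.4% in footprints (13.4% lower and 12% higher). The macrophage, endothelial and spermatogonial counts in RNA given below were near the share called in either direction. In RNA, 9 of 12 Sertoli cell markers were lower and 1 higher, and 9 of 10 peritubular myoid markers were lower and 0 higher. Leydig cell markers had 4 of 10 higher and 1 lower, macrophage markers 3 of 10 higher and 1 lower, endothelial markers 3 of 8 lower and 0 higher, and spermatogonial markers 5 of 12 lower and 0 higher. In footprints, Sertoli markers had 4 lower and 1 higher, myoid markers 4 lower and 0 higher, Leydig markers 0 lower and 6 higher, macrophage markers 2 lower and 2 higher, endothelial markers 6 lower and 0 higher, and spermatogonial markers 1 lower and 0 higher. Summed Leydig RNA was 2396 and 2408 CPM in null against 1323 and 1317 CPM in WT. Insl3, a Leydig cell hormone, made up most of that difference, and the other 9 Leydig markers summed to 824 and 828 CPM in null against 715 and 722 CPM in WT. Summed Sertoli footprints, 4778 and 4742 CPM in null and 4602 and 4844 CPM in WT, overlapped between the genotypes. That sum rested mostly on Clu. Without it, the other 11 Sertoli markers summed to 1388 and 1399 CPM in null footprints and 1466 and 1536 CPM in WT footprints. These sums were lower in null, without overlap.

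The CREM branch was examined first. Crem (ENSMUSG00000063889.16, chromosome 18, 3266354 to 3337773, GRCm38) encodes both activators and repressors from alternative promoters and exons. It had 153.9 and 164.5 CPM in null RNA, against 133 and 140.3 CPM in WT RNA. Both null libraries were above both WT libraries, but the difference of 0.22 ± 0.10 (SE) on the log2 scale did not pass (edgeR adjusted p = 0.115). Crem footprints were 248 and 218 CPM in null and 247 and 259 CPM in WT. These ranges overlapped, and the difference of -0.12 ± 0.10 did not pass (edgeR adjusted p = 0.42). Its translational efficiency differed by -0.34 ± 0.14 (edgeR adjusted p = 0.141). Among the alternatives without a pairing term, the RNA difference of Crem passed with the 4 RNA libraries fitted alone, at 0.29 (edgeR adjusted p = 0.000238), and likewise without TMM scaling (0.0263), without null footprint replicate 2 (0.0429) or without WT footprint replicate 1 (0.0281). In translational efficiency it passed without TMM (0.0397). A crossed pairing of the footprint libraries, added after seeing the data, also brought calls for Crem, Rfx2 and Rfx3.

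Of 39 annotated Crem transcripts in the tables, 34 reached a mean of 100 counts. Their log2 changes in null ran from -0.78 to 0.28 in RNA and from -0.47 to 0.04 in footprints. Fragments that several transcripts share were counted for each of them, so these values are not independent and cannot assign a change to an activator or a repressor form. For the transcript used, ribosome occupancy per RNA of Crem was above the median of the genes tested in both genotypes. By the deposited ratio it stood at percentile 62.6 in null and 71.8 in WT. The authors' deposited ratio of footprint FPKM to RNA FPKM was 1.81 and 1.57 in null and 2.38 and 2.24 in WT, against a median over genes tested of 1.13 and 1.22 in null and 1.31 and 1.21 in WT.

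Fhl5 (ENSMUSG00000028259.13, chromosome 4, 25199907 to 25242852) encodes the LIM-only coactivator ACT, which binds CREM in spermatids. Its RNA was 83.0 and 81.3 CPM in null, against 138 and 155 CPM in WT. The groups did not overlap, and null testes held 56.0% of the WT level, a change of -0.84 ± 0.14 on the log2 scale (edgeR adjusted p = 0.00199). Footprints of Fhl5 numbered 73 and 225 counts in null, against 4971 and 2328 counts in WT. Scaled for depth they were 6.52 and 7.80 CPM in null, against 169 and 132 CPM in WT. Both null libraries were far below both WT libraries, at 4.76% of the WT level, and the footprints fell by 4.37 ± 0.16 on the log2 scale (edgeR adjusted p = 5.73e-07).

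The translational efficiency of Fhl5 fell by 3.53 ± 0.21 on the log2 scale (edgeR adjusted p = 7.78e-05), an 11.6-fold decrease. In WT testes its footprints had matched its RNA, relative to the bulk of genes, with a log2 ratio of 0.04 ± 0.14. In null testes that ratio was -3.50 ± 0.16. The authors' deposited efficiency was 0.0880 and 0.114 in null, against 1.56 and 1.03 in WT. It stood at percentile 3.4 of the genes tested in null and at percentile 50.7 in WT. Both annotated transcripts showed the loss, with footprint changes between -4.39 and -4.34 and RNA changes of -0.84. The RNA, footprint and efficiency calls of Fhl5 held under every alternative tried that gave a test, with edgeR or DESeq2 adjusted p of at most 0.0254 in RNA and 0.00363 in efficiency.

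**Figure D2:**
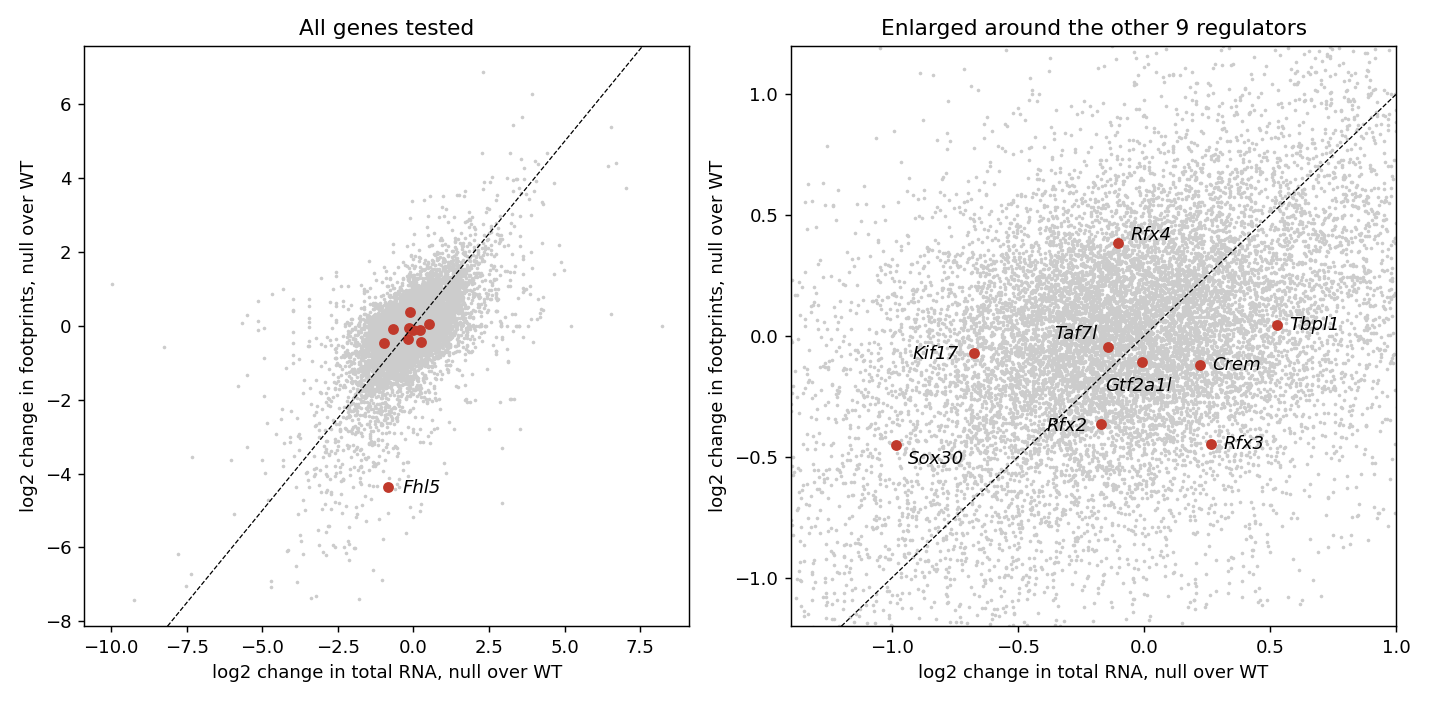
Each point is a gene, with its log2 change in total RNA, null over WT, on the horizontal axis and in footprints on the vertical axis. The dashed line marks equal change, grey points are all 16051 genes tested and red points the members. Fhl5 lies far below the line at -0.84 in RNA and -4.37 in footprints, and the enlarged panel shows the other 9 members within 1 log2 unit of 0 on both axes.

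The genes whose 8-library pattern lay nearest that of Fhl5, by Euclidean distance of centred log2(CPM + 1) over 10170 genes, were Trim36, Gm5941 and Ctag2 at distances of 0.69, 0.79 and 0.90. Trim36 changed by -1.01 in RNA and -3.93 in footprints, Gm5941 by -0.22 and -4.31, and Ctag2 by -0.35 and -3.89. All these distances exceeded those of the genes nearest to Crem, which were Hdac3, a histone deacetylase, at 0.14, Wsb1 at 0.17 and Ccz1 at 0.18. Since these genes were picked on the same 8 libraries, the likeness of their changes follows from the choice.

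Kif17 (ENSMUSG00000028758.12, chromosome 4, 138262251 to 138301973) is a motor protein rather than a transcription factor and acts on CREM through ACT. Its RNA was 322 and 330.4 CPM in null, against 543 and 498 CPM in WT. The groups did not overlap, and the RNA fell by 0.68 ± 0.10 on the log2 scale (edgeR adjusted p = 0.00114). Its footprints were 57.3 and 60.6 CPM in null and 66.3 and 57.6 CPM in WT. These overlapped and differed by -0.07 ± 0.10 (edgeR adjusted p = 0.654). The ratio of the assays accordingly differed by 0.60 ± 0.14 (edgeR adjusted p = 0.0265), with less RNA in null and footprint levels that overlapped.

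Few ribosomes were found on Kif17 mRNA in either genotype. The deposited efficiency was 0.199 and 0.218 in null and 0.156 and 0.140 in WT, at percentiles 8.0 and 3.7 of the genes tested. In the test, Kif17 footprints stood at -2.47 ± 0.11 relative to RNA in null and at -3.07 ± 0.11 in WT on the log2 scale. Its RNA change was similar over 3 transcripts, from -0.76 to -0.66. The efficiency call was lost without any single RNA library (adjusted p from 0.0655 to 0.135), without null footprint replicate 2 (0.0857) and without TMM scaling (0.0988).

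Sox30 (ENSMUSG00000040489.5, chromosome 11, 45979069 to 46017992) had the largest RNA decrease of the members. Its RNA was 203 and 209.7 CPM in null, against 417 and 399.8 CPM in WT. Null testes held 50.5% of the WT level, without overlap, a change of -0.98 ± 0.08 on the log2 scale (edgeR adjusted p = 6.31e-05). Footprints of Sox30 were 79.5 and 77.3 CPM in null, against 107 and 108 CPM in WT. They too did not overlap, and fell by 0.45 ± 0.08 on the log2 scale (edgeR adjusted p = 0.0049), less than the RNA. Its efficiency therefore rose by 0.53 ± 0.12 (edgeR adjusted p = 0.021).

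The deposited efficiency of Sox30 was 0.439 and 0.438 in null, against 0.328 and 0.327 in WT, below the median of the genes tested in both genotypes. The footprint call was lost when the 4 footprint libraries were fitted alone (adjusted p = 0.0727). The efficiency call was lost without any single RNA library (0.0653 to 0.132), without null footprint replicate 2 (0.0557) and without TMM scaling (0.0636).

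**Figure D3:**
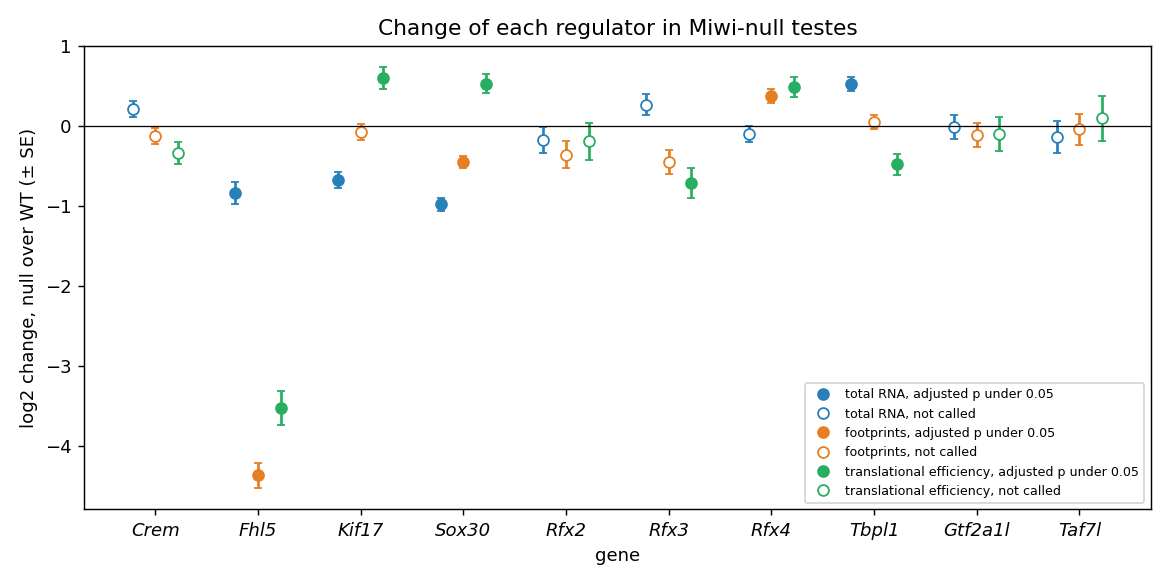
For each member, points give the log2 change, null over WT, in total RNA, footprints and translational efficiency, and bars the SE from edgeR. Filled points passed at an adjusted p under 0.05, among them Fhl5 in all 3 measures, with -4.37 in footprints and -3.53 in efficiency.

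The RFX members differed among themselves. Rfx2 (ENSMUSG00000024206.15, chromosome 17, 56775897 to 56831008), which mouse spermatids need to form flagella, had 548 and 551 CPM in null RNA and 679 and 558 CPM in WT RNA. The null libraries were just below the lower WT library, and the difference of -0.17 ± 0.16 did not pass (edgeR adjusted p = 0.452). Its footprints were 72.7 and 89.0 CPM in null and 120.1 and 88.2 CPM in WT. They overlapped and differed by -0.36 ± 0.17 (edgeR adjusted p = 0.148). Without WT footprint replicate 2 that difference was -0.56 and passed (adjusted p = 0.013).

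Rfx3 (ENSMUSG00000040929.16, chromosome 19, 27761721 to 28014669), a regulator of cilia in many tissues, was the member with the fewest footprints per coding length. Its RNA was 59.0 and 65.9 CPM in null and 49.6 and 54.2 CPM in WT, a difference of 0.27 ± 0.13 that did not pass (edgeR adjusted p = 0.14). Its footprints were 7.32 and 8.70 CPM in null and 11.99 and 10.04 CPM in WT, a difference of -0.45 ± 0.15 just short of the threshold (edgeR adjusted p = 0.0552). In neither assay did the groups overlap, and they lay apart in opposite directions. The efficiency of Rfx3 fell by 0.71 ± 0.19 on the log2 scale (edgeR adjusted p = 0.0431). That call was lost without any single RNA library (0.0991 to 0.172), without null footprint replicate 1 (0.0997) and without WT footprint replicate 1 (0.0792). Its RNA difference passed with the RNA libraries alone (0.00106) and without WT footprint replicate 1 (0.04), and its footprint difference without WT footprint replicate 2 (0.0221) and with counts summed over transcripts (0.0416).

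Rfx4 (ENSMUSG00000020037.15, chromosome 10, 84756036 to 84906538), known from brain and testis, was the member whose footprints rose. Its RNA was 94.7 and 99.5 CPM in null and 105 and 104 CPM in WT. The null libraries were lower without overlap, but the difference of -0.10 ± 0.10 did not pass (edgeR adjusted p = 0.431). Rfx4 footprints were 144 and 135 CPM in null, against 102 and 112 CPM in WT. These groups did not overlap, and the footprints rose by 0.38 ± 0.09 on the log2 scale (edgeR adjusted p = 0.0181). The efficiency rose by 0.49 ± 0.13 (edgeR adjusted p = 0.0439), the call closest to the threshold. The footprint call was lost with the footprint libraries alone (0.129), without either null RNA library (0.0519 and 0.0518) and without null footprint replicate 1 (0.0848). The efficiency call was lost without any single RNA library (0.119 to 0.202), without null footprint replicate 1 (0.102) or 2 (0.0858), without WT footprint replicate 1 (0.0787), and with each of the other scalings (0.0607 to 0.104).

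Footprints were few relative to RNA for Rfx2 and Rfx3 and not for Rfx4. The deposited efficiency was 0.149 and 0.192 in null and 0.227 and 0.192 in WT for Rfx2. It was 0.139 and 0.157 in null and 0.309 and 0.225 in WT for Rfx3. For Rfx4 it was 1.70 and 1.61 in null and 1.25 and 1.30 in WT. The members of this family that share a DNA-binding domain thus spanned a wide range of ribosome occupancy per RNA. An annotated lncRNA or pseudogene lies within or beside Rfx2, Rfx3 and Rfx4, as beside Crem and Fhl5. The end of Tbpl1 touches that of Slc2a12, and it is not stated in the sources used here whether counting used strand.

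No footprint difference passed for the germ cell relatives of general factors. Tbpl1 (ENSMUSG00000071359.13, chromosome 10, 22703877 to 22732666) encodes a TBP-like factor without which mouse spermatids arrest. Its RNA was 245 and 240.0 CPM in null, against 161 and 176 CPM in WT. Both null libraries were higher, and the RNA rose by 0.53 ± 0.09 on the log2 scale (edgeR adjusted p = 0.0026), 1.44-fold. Its footprints were 171 and 171 CPM in null and 172 and 159 CPM in WT, overlapping, with a difference of 0.05 ± 0.09 (edgeR adjusted p = 0.744). The efficiency of Tbpl1 fell by 0.48 ± 0.13 on the log2 scale (edgeR adjusted p = 0.0412).

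Deposited efficiencies of Tbpl1 were 0.783 and 0.844 in null, against 1.37 and 1.09 in WT. The efficiency call was lost without any single RNA library (0.082 to 0.184), without null footprint replicate 1 (0.081) or 2 (0.0698), and without the filter on low counts (0.0506). With a trend of the change on coding length removed, the RNA difference of this short gene was 0.77 and its footprint difference 0.21.

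Gtf2a1l (ENSMUSG00000024154.11, chromosome 17, 88665493 to 88715157), the germ cell form of the large TFIIA subunit, and Taf7l (ENSMUSG00000009596.9, chromosome X, 134460116 to 134476505), an X-linked relative of the TFIID subunit TAF7, did not pass in any comparison of the genotypes. Gtf2a1l RNA was 302 and 298 CPM in null and 310.1 and 293 CPM in WT, with a difference of -0.01 ± 0.15 (edgeR adjusted p = 0.971). Its footprints were 172 and 219.9 CPM in null and 239 and 184 CPM in WT, with a difference of -0.11 ± 0.15 (edgeR adjusted p = 0.642). In both assays the WT libraries enclosed or overlapped the null ones.

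Taf7l RNA was 34.5 and 31.3 CPM in null and 32.5 and 40.3 CPM in WT, and its footprints were 214 and 169.8 CPM in null and 161 and 234 CPM in WT. The groups overlapped in both assays, with differences of -0.14 ± 0.20 in RNA and -0.04 ± 0.19 in footprints (edgeR adjusted p = 0.616 and 0.895). With the transcript used for each gene, Taf7l had the highest ribosome occupancy per RNA of the members in both genotypes. That rank depended on the transcript. In WT the ratio of footprint to RNA CPM ran from 5.42 to 11.3 over Taf7l transcripts and from 1.34 to 17.8 over Crem transcripts. In null it ran from 5.82 to 12.7 and from 1.46 to 20.7. The deposited efficiency of Taf7l was 6.92 and 6.44 in null and 6.35 and 7.04 in WT, at percentiles 93.3 and 94.0 of the genes tested.

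**Figure D4:**
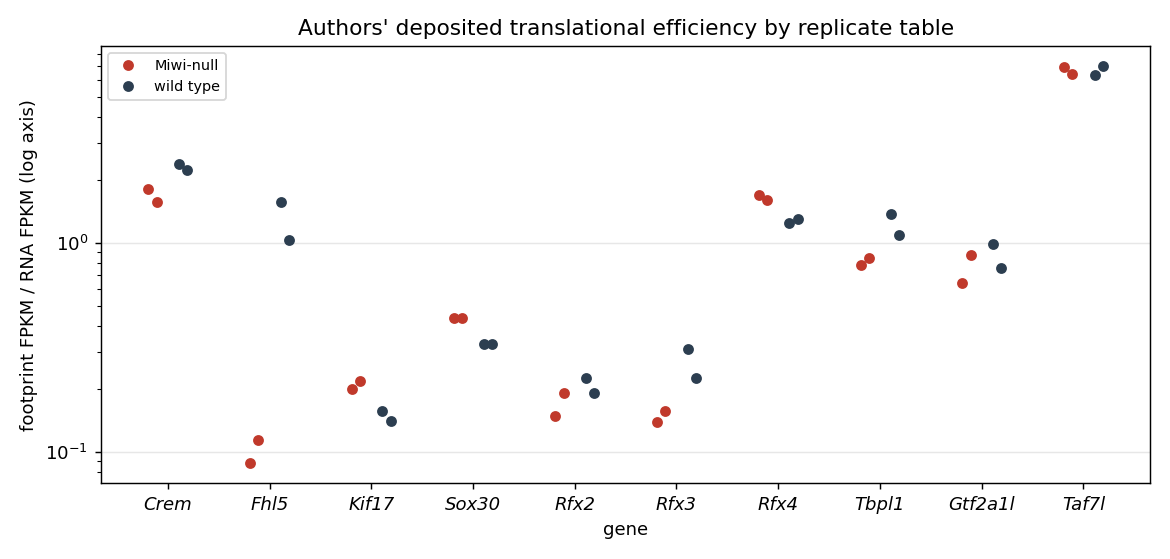
Points give the authors' deposited ratio of footprint FPKM to RNA FPKM in each replicate table, on a log axis, for Miwi-null (red, left of each pair) and wild type (dark). Taf7l lies between 6.35 and 7.04 in both genotypes, and Fhl5 at 0.0880 and 0.114 in null against 1.56 and 1.03 in WT.

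The levels of the members were ordered by the deposited FPKM, which divides by coding length. In null RNA the order was Tbpl1 at 360.0 ± 4.63 FPKM (SD, n = 2), Rfx2 at 212 ± 1.25, Gtf2a1l at 177 ± 1.27, Crem at 123 ± 6.06, Kif17 at 86.7 ± 1.83, Fhl5 at 79.9 ± 1.0, Sox30 at 72.9 ± 1.8, Rfx4 at 36.5 ± 1.35, Rfx3 at 23.0 ± 1.85 and Taf7l at 19.3 ± 1.31. No neighbours in this order overlapped. In WT RNA, Tbpl1 at 239 ± 14.4 FPKM and Rfx2 at 227 ± 32.3 overlapped at the top. Gtf2a1l followed at 169.9 ± 7.26, then Sox30 at 138 ± 4.52, Fhl5 at 136 ± 10.5 and Kif17 at 132 ± 8.44, whose ranges overlapped, then Crem at 101 ± 3.65 and Rfx4 at 37.4 ± 0.248. Taf7l at 20.4 ± 3.01 and Rfx3 at 18.3 ± 1.08 overlapped at the bottom. Sox30, Fhl5 and Kif17 therefore stood above Crem in WT and below it in null.

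In null footprints Tbpl1 led at 293 ± 11.9 FPKM, followed by Crem at 208 ± 10.3. Gtf2a1l at 134 ± 28.8 and Taf7l at 129 ± 15.3 overlapped, Rfx4 followed at 60.3 ± 0.151, and Rfx2 at 36.0 ± 6.68 overlapped Sox30 at 31.9 ± 0.735. Kif17 at 18.1 ± 1.52, Fhl5 at 8.06 ± 1.36 and Rfx3 at 3.42 ± 0.562 ended the order. In WT footprints Tbpl1 at 293 ± 29.0 FPKM and Crem at 233 ± 1.76 were again highest. Fhl5 at 175 ± 37.3, Gtf2a1l at 149 ± 33.4 and Taf7l at 137 ± 30.1 overlapped as neighbours, as did Rfx2 at 48.0 ± 12.3 and Rfx4 at 47.6 ± 1.21. Sox30 at 45.1 ± 1.56, Kif17 at 19.7 ± 2.76 and Rfx3 at 4.85 ± 0.804 followed. Fhl5 changed places most, standing above Gtf2a1l in WT footprints and below Kif17 in null footprints.

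Footprints were also tested against RNA within each genotype, relative to the bulk of genes. In null testes 10 of 10 members differed (3 with more footprints and 7 with fewer), where 75.5% of all genes did (38.4% and 37.1%). In WT testes 7 of 10 differed (2 and 5), where 74.2% of all genes did (37.7% and 36.4%). In null, Taf7l, Crem and Rfx4 had more footprints than RNA, at 2.54 ± 0.21, 0.55 ± 0.10 and 0.52 ± 0.10 on the log2 scale. Fhl5, Rfx3, Rfx2, Kif17, Sox30, Gtf2a1l and Tbpl1 had fewer, from -3.50 to -0.51. In WT, Taf7l at 2.44 ± 0.20 and Crem at 0.89 ± 0.10 had more, and Kif17, Rfx2, Rfx3, Sox30 and Gtf2a1l had fewer, from -3.07 to -0.51. Fhl5, Rfx4 and Tbpl1 did not pass in WT, at 0.04 ± 0.14, 0.03 ± 0.09 and -0.03 ± 0.09. For Gtf2a1l the direction depended on the transcript. The ratio of footprint to RNA CPM was 0.70 in WT and 0.654 in null for the transcript used. For a shorter transcript it was 1.14 and 1.35.

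Genes linked to these regulators were followed in lists. The lists were chosen with earlier results of these data known, so the direction of a list may follow from the choice of its genes. Of 20 haploid program genes tied to CREM or to TBPL1 in mouse, 15 fell and 0 rose in null RNA (median log2 change -1.51), 17 fell and 0 rose in footprints (median -3.20), and 12 fell and 0 rose in efficiency (median -1.85). Over all 16051 genes, 2643 were higher and 3343 lower in RNA (median -0.07), 1931 higher and 2143 lower in footprints (median 0.00) and 1181 higher and 1214 lower in efficiency (median 0.04). Tnp2, a transition protein of sperm chromatin, fell by 4.72 ± 0.12 in RNA and fell by 7.08 ± 0.13 in footprints. The protamine Prm2 fell by 4.71 ± 0.19 in RNA and fell by 6.92 ± 0.22 in footprints. The efficiency of Odf1, of the outer dense fibres, and of Akap4, of the fibrous sheath, fell by 4.10 ± 0.19 and 4.10 ± 0.16. Of the 20 genes, 8 are also markers of elongating spermatids, whose summed level was lower in null, and the part of that stage in these falls was not tested.

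Relatives of CREM and parts of the cAMP pathway, 22 genes, had 2 higher and 8 lower in RNA (median -0.19), 1 higher and 6 lower in footprints (median -0.14) and 2 higher and 2 lower in efficiency (median 0.05). Fhl4, a testis LIM-only gene of the same family as Fhl5, had 1476 CPM in null RNA and 1243 CPM in WT RNA, a difference of 0.25 ± 0.10 that did not pass (edgeR adjusted p = 0.0846). Its footprints averaged 29.5 CPM in null and 113 CPM in WT and fell by 1.93 ± 0.11 on the log2 scale, and its efficiency fell by 2.18 ± 0.15 (edgeR adjusted p = 0.000132). Fhl4 and Fhl5 thus both lost footprints beyond their RNA. Fhl3 RNA fell by 1.34 ± 0.40, on a level of 1.18 CPM in null and 2.99 CPM in WT.

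Among the other relatives, Creb3l4, a membrane-bound CREB protein of spermatids, fell by 1.28 ± 0.09 in footprints and by 0.75 ± 0.13 in efficiency. Prkar2a, a regulatory subunit of protein kinase A, fell by 1.93 ± 0.18 in RNA and also fell in footprints, which averaged 25.7 CPM in null and 72.0 CPM in WT (edgeR adjusted p = 0.000428). The phosphodiesterase Pde4a rose by 0.46 ± 0.12 in RNA and 0.52 ± 0.12 in footprints, and the efficiency of the CREB coactivators Crtc1 and Crtc3 rose by 0.97 ± 0.23 and 0.72 ± 0.20. Creb1 and Atf1, the closest relatives of CREM, did not pass, with RNA differences of -0.44 ± 0.20 and 0.48 ± 0.17. Creb3l3 passed as higher in RNA at 3.34 CPM in null and 0.209 CPM in WT, and no fold is given because the WT level is only a few counts.

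RFX family genes and their partners, other than the members, had 1 of 8 higher and 2 lower in RNA (median -0.25), 0 called in footprints (median -0.09) and 0 higher and 1 lower in efficiency (median 0.22). Rfx1 fell by 0.45 ± 0.13 and Rfxank, a partner of RFX5, by 0.48 ± 0.14 in RNA. Rfx7 rose by 0.40 ± 0.12 in RNA and its efficiency fell by 0.71 ± 0.18. Rfx5 differed by -0.12 ± 0.12 in RNA and -0.28 ± 0.13 in footprints, neither of which passed.

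Over all genes, 12% were called higher and 13.4% lower in footprints. Among RFX-dependent and ciliary genes, more footprint changes were called higher than lower. Of 18, 6 were higher and 3 lower in RNA (median 0.26), 11 higher and 0 lower in footprints (median 0.47) and 5 higher and 1 lower in efficiency (median 0.19). Dync2h1, the motor of retrograde transport in cilia, rose by 1.42 ± 0.09 in RNA while its efficiency fell by 0.94 ± 0.13. The axonemal dynein Dnah9 rose by 0.99 ± 0.14 in RNA and 1.21 ± 0.15 in footprints, and Ttc25, which helps dock outer dynein arms, rose by 0.70 ± 0.09 in footprints. Hist1h1t, the testis linker histone, fell by 0.41 ± 0.09 in RNA and its efficiency rose by 0.86 ± 0.13. Dnali1 fell by 0.64 ± 0.13 in RNA, and the efficiency of the tektin Tekt4 rose by 0.84 ± 0.13. Markers of pachytene spermatocytes, 1 of which (Spag6l) is in this list, had a higher summed RNA level in null. Their summed footprints were lower in null, and without Ldhc those sums overlapped between the genotypes. The part of that stage in the changes of this list was not tested.

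**Figure D5:**
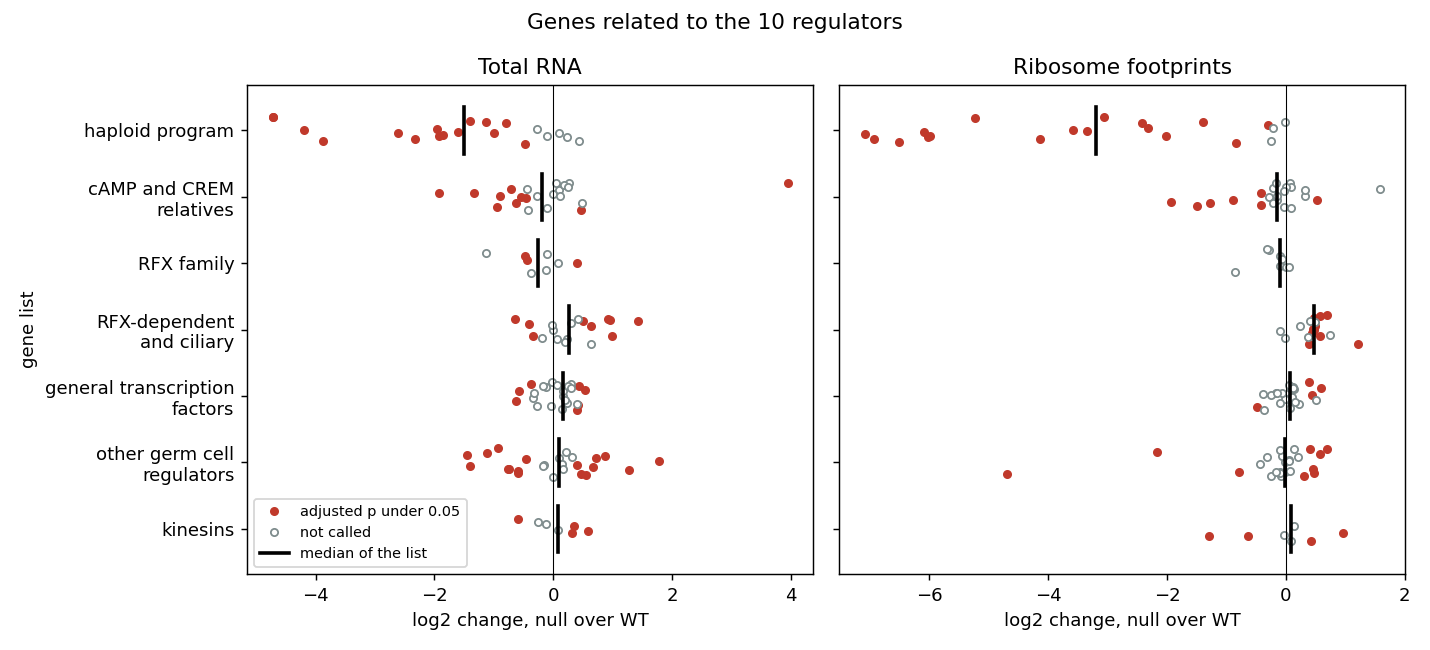
Each point is a gene of a list, placed by its log2 change, null over WT, in total RNA (left) and footprints (right), with the median of each list as a vertical bar and genes called at an adjusted p under 0.05 filled. The haploid program has medians of -1.51 in RNA and -3.20 in footprints. Of the 18 RFX-dependent and ciliary genes, 11 are filled to the right of 0 in footprints, with a list median of 0.47. Over all genes, 12% were called higher in footprints.

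A list of general transcription factor genes included the somatic counterparts of Tbpl1, Taf7l and Gtf2a1l. Over all genes, 37.3% were called in RNA, 25.4% in footprints and 14.9% in efficiency. Of 24 tested in the list, 4 were higher and 3 lower in RNA (median 0.15), 3 higher and 1 lower in footprints (median 0.07) and 3 higher and 1 lower in efficiency (median -0.11). Tbp differed by -0.13 ± 0.17 in RNA and Taf7 by -0.03 ± 0.15, and neither passed. Gtf2a1, the counterpart of Gtf2a1l, rose by 0.43 ± 0.10 in RNA. The TFIIF subunits moved apart in RNA, with Gtf2f2 rising by 0.53 ± 0.10 and Gtf2f1 falling by 0.63 ± 0.15, while both rose in footprints, Gtf2f1 by 0.59 ± 0.15 and Gtf2f2 by 0.44 ± 0.09. The efficiency of Gtf2f1 rose by 1.21 ± 0.21 and that of Gtf2e1 by 0.68 ± 0.17, and that of Gtf2h1 fell by 0.54 ± 0.12. Taf10 fell by 0.57 ± 0.11 in RNA and Taf4b by 0.49 ± 0.13 in footprints.

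Of 25 other germ cell regulators of transcription and chromatin, 8 were higher and 9 lower in RNA (median 0.09), 6 higher and 3 lower in footprints (median -0.02) and 4 higher and 6 lower in efficiency (median -0.17). Spz1, a bHLH-zip factor of the testis, lost far more footprints than RNA. It averaged 304.5 CPM in null RNA and 804 CPM in WT RNA, and 2.07 CPM in null footprints and 56.9 CPM in WT footprints. Its RNA fell by 1.40 ± 0.16, its footprints fell by 4.69 ± 0.21 and its efficiency fell by 3.29 ± 0.26 on the log2 scale (edgeR adjusted p = 0.000257 for efficiency). Cdyl, a chromodomain protein, fell by 1.45 ± 0.10 in RNA and fell by 2.16 ± 0.11 in footprints. Jmjd1c, a relative of histone demethylases, rose by 1.28 ± 0.09 and 0.69 ± 0.09, and Bptf rose by 0.57 ± 0.11 in footprints. The Y-linked zinc finger gene Zfy2 rose by 1.78 ± 0.20 in RNA and its efficiency fell by 1.71 ± 0.28, and the efficiency of Dmrtb1 rose by 0.93 ± 0.15.

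The kinesins related to Kif17, 7 genes, had 3 higher and 1 lower in RNA (median 0.07), 2 higher and 2 lower in footprints (median 0.09) and 0 higher and 2 lower in efficiency (median 0.12). Kif3a, a motor subunit of kinesin-2, rose by 0.58 ± 0.13 in RNA and 0.96 ± 0.13 in footprints. Kifap3, its accessory subunit, rose by 0.35 ± 0.09 in RNA but fell by 0.64 ± 0.09 in footprints. Kif5c fell by 0.60 ± 0.14 in RNA and fell by 1.29 ± 0.14 in footprints, and Kif9 rose by 0.43 ± 0.08 in footprints.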

How the data were processed

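Testes of Miwi-null and WT mice gave 8 libraries, 2 for each genotype and assay, grouped by their titles. Per the submitters' processing notes, cutadapt 2.5, Bowtie 1.2.2, STAR 2.5.0a and build GRCm38 were used, with no role given for each. The authors deposited whole-number fragment counts per transcript without normalization, FPKM values per coding length, and translational efficiency as the ratio of footprint FPKM to RNA FPKM. The sources used here do not name the counting program. The deposited log2 changes and merged table were not used, except to check that merged counts equal the sum of replicates.

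Per gene, counts of the transcript with the highest mean count were fitted in R 4.3.3 with edgeR 4.0.16, because fragments were counted for each transcript they overlapped (transcript sums were 2.23 to 2.40 times gene totals). Genes were kept at a minimum count of 10 and a total of 15 by filterByExpr, scaled by TMM over 8 libraries, and fitted by robust quasi-likelihood with 4 residual degrees of freedom. Translational efficiency was tested as the interaction of genotype and assay. P-values were adjusted by Benjamini-Hochberg over all genes. SE is the log2 change divided by the root of the F statistic, and CPM is relative to the TMM-scaled library size, so changes are relative to the bulk of genes. A single count stood for 0.0353 to 0.0898 CPM. The steps were tested on simulated data. Alternatives, given at the end, included DESeq2 1.42.0 and other scalings, filters and transcripts. Named genes were Piwil1, the members, up to 2 called genes a direction with the largest change in each list, direct relatives of members, and the 3 genes nearest to Crem and to Fhl5 at a mean of at least 10 CPM. Marker genes that carried a summed level were also named. Members and lists were chosen with earlier results of these data known. A result for 1 gene that the naming rule selects is not reported here.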

Additional observations from a re-analysis of the deposited data

How the results depend on the processing

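The RNA, footprint and efficiency calls of Fhl5 and the RNA calls of Kif17, Sox30 and Tbpl1 held in all alternatives that gave a test. Of 590 member values over 20 alternatives, 500 counted as unchanged. This meant the same direction and side of the threshold. With the trend on coding length removed, which gave no p-value, it meant less than 1 SE from the main value. Fitting the libraries of each assay alone estimated the spread within that assay. It gave 9041 genes in RNA, 1983 in footprints and 1 member in footprints, against 5986, 4074 and 3. Leaving out 1 library at a time gave 3249 to 7094 genes in RNA, 2936 to 5169 in footprints and 622 to 3636 in efficiency, with 4 to 6, 2 to 5 and 1 to 6 members, and such fits have fewer samples.

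Same-numbered libraries did not deviate together, with correlations across genes from -0.831 to 0.076, and the lowest, between null and WT footprints, means that libraries of opposite numbers deviated together. The numbers were therefore not taken as a pairing. With the replicate block, 1237 genes and 1 member were called in efficiency, against 2395 and 6, and Kif17 (adjusted p = 0.0633), Rfx3 (0.0824), Rfx4 (0.0973), Sox30 (0.0612) and Tbpl1 (0.097) were not. RNA and footprints had 5022 and 3061 genes with the block, with no member call changed. A crossed pairing of the footprint libraries, added after seeing the data, gave 9103, 8183 and 6539 genes and 7, 5 and 7 members in RNA, footprints and efficiency, Crem, Rfx2 and Rfx3 being the members added.

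Without TMM the median efficiency change of all genes was -0.099 in place of 0.043. With TMM within each assay, 39% of the efficiency calls were higher, against 49.3%. Small differences that never passed changed sign, and the cause was not tested. Gtf2a1l in RNA became 0.089 without TMM, 0.058 with a TMM scaling per assay, 0.030 with DESeq2 size factors and with DESeq2, 0.002 at a minimum count of 50 and 0.054 with RNA libraries alone. Without TMM, Tbpl1 in footprints became -0.001 and Taf7l in efficiency -0.041. With 1 library left out, Taf7l ranged from -0.294 to 0.013 in RNA, -0.257 to 0.248 in footprints and -0.182 to 0.393 in efficiency, and Gtf2a1l from -0.054 to 0.059, -0.28 to 0.131 and -0.336 to 0.073. Kif17 in footprints ranged from -0.166 to 0.071, Tbpl1 in footprints from -0.009 to 0.142 and Rfx2 in efficiency from -0.399 to 0.019.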
